A study of Arabidopsis thaliana with 9 samples.

Results

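Transcript levels of 10 aquaporin genes were followed in wild-type, *bdr1,2,3* and *fpa* seedlings of *Arabidopsis thaliana*. The 10 genes were chosen by name. They are the plasma membrane genes *PIP1A* (*PIP1;1*), *PIP1B* (*PIP1;2*), *PIP1D* (*PIP1;5*), *PIP2A* (*PIP2;1*), *PIP2B* (*PIP2;2*), *PIP2C* (*PIP2;3*) and *PIP3A* (*PIP2;7*), and the tonoplast genes *γ-TIP1* (*TIP1;1*), *γ-TIP2* (*TIP1;2*) and *δ-TIP1* (*TIP2;1*). The letter names are those of the RefSeq annotation. The table of counts holds 33602 genes, and 20413 of them, all 10 aquaporins included, passed the filter on low counts.

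RNA was sequenced from whole seedlings, with 3 libraries per genotype and 9 in all. All seedlings were Col-0, 8 days old, stratified for 4 days and grown at 21 °C with 16 h of light and 8 h of dark. The triple mutant *bdr1,2,3* was a cross of *bdr1* (SALK_142108C), *bdr2* (CS852350 in the labels, another stock name in the study's methods) and *bdr3* (SALK_059905). BDR proteins are thought to act as negative factors of transcriptional elongation, and they are found at the borders of genes. The *fpa* single mutant carries a lesion in *FPA*, an RNA-binding protein that acts in the choice of the 3′ end of transcripts, and its allele is not named in the labels. None of the groups was treated, and wild type is the only control. The labels give no more than a number for each library, so the spread between libraries of a genotype is taken as the error, and it may be partly technical. The study describes short roots in *bdr1,2,3* seedlings. In whole seedlings, fewer cells of a type and less RNA per cell cannot be told apart.

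Aquaporins are channel proteins that let water, and in some cases other small neutral molecules, cross membranes. They sit in the membrane as tetramers in which each monomer has its own pore, and 2 short boxes of asparagine, proline and alanine (NPA) meet in the middle of each pore. PIPs act mainly in the plasma membrane, where they set how fast water enters and leaves the cell and crosses roots and leaves, and TIPs act mainly in the tonoplast, the membrane of the vacuole. In maize, PIP1 proteins reach the plasma membrane when they pair with PIP2 proteins.

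The coding sequence around the first NPA box is shown for the 10 genes, because it is the hallmark of the family and shows how alike the members are at the base level. Capitals mark the codons for asparagine, proline and alanine, with 15 bases on each side, 5′ to 3′, read from the TAIR10.1 genome.
PIP1A: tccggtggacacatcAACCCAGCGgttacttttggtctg
PIP1B: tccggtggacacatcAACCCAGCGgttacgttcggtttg
PIP1D: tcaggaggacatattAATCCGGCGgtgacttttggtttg
PIP2A: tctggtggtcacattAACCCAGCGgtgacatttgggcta
PIP2B: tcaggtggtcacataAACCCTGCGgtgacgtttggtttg
PIP2C: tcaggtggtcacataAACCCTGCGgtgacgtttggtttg
PIP3A: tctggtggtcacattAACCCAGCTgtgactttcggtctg
γ-TIP1: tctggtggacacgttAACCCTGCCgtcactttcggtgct
γ-TIP2: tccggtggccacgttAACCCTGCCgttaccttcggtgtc
δ-TIP1: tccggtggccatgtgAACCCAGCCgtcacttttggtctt
Each of the 10 coding sequences holds 2 NPA boxes. The windows of *PIP2B* and *PIP2C* are identical, and no other pair is. Over the whole coding sequence this pair shares 94.8% of its bases, against 87.6% for *PIP1A* and *PIP1B* and 86.1% for *PIP2A* and *PIP2B*.

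Library totals ran from 8676610 counts in wild-type replicate 12 to 26861793 in wild-type replicate 5. *BDR1* was lower in *bdr1,2,3* than in wild type (log2 fold change -4.81, standard error 0.25, adjusted p = 3.56e-07 by edgeR, with p-values adjusted by Benjamini and Hochberg's method over all genes tested), and so was *BDR2* (-0.85, standard error 0.18, adjusted p = 0.0177). *BDR3* in *bdr1,2,3* (-0.76, adjusted p = 0.226) and *FPA* in *fpa* (-0.39, adjusted p = 0.248) did not pass the threshold of 0.05. *FPA* was no lower in *fpa* (41.5 ± 3.80 CPM, counts scaled to the effective library size) than in *bdr1,2,3* (37.5 ± 8.09 CPM), against 54.1 ± 10.7 CPM in wild type (SD, n = 3). Without wild-type replicate 12 it was called lower in *bdr1,2,3* (-0.67, adjusted p = 0.0300) and not in *fpa* (-0.54, adjusted p = 0.0815), so its level does not set the *fpa* libraries apart from those of *bdr1,2,3*. Gene counts alone do not tell a full-length transcript from a broken one. The 10 green-tissue markers and the 20 root markers that were examined had counts in every library, except 1 root cap gene at 0 in wild-type replicate 12. Replicate 12 stands apart from the other 2 wild-type libraries, as a chi-square per degree of freedom of 36.9 and 34.5 against replicates 1 and 5 shows, compared with 8.36 between replicates 1 and 5. To a lesser degree *bdr1,2,3* replicate 7 also stands apart, with 22 and 17.3 against replicates 2 and 4, compared with 10.9 between these. In *fpa* the values were 9.99 to 13.7. The main results of each comparison are therefore also given without replicate 12, with 8 libraries and 20849 genes tested.

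The 10 genes took up a large share of the RNA. They held 0.743%, 1.14% and 0.831% of all counts in wild-type replicates 1, 12 and 5. In *bdr1,2,3* replicates 2, 4 and 7 the share was 0.664%, 0.665% and 0.746%, and in *fpa* replicates 3, 6 and 8 it was 0.646%, 0.747% and 0.726%. Wild-type replicate 12 lay above the other 8 libraries, and without it *bdr1,2,3* replicate 7 and *fpa* replicate 6 were at the level of wild-type replicate 1.

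Levels between genes were compared as RPKM, the counts of a gene divided by its exon length in kilobases and by the size of the library, with exon lengths from RefSeq. In wild type *γ-TIP2* had the highest mean, 2080 ± 679 RPKM (SD, n = 3), followed by *δ-TIP1* with 1810 ± 878 (SD, n = 3). The ranges of these tonoplast genes over the 3 libraries overlapped, and both lay above all 8 others. *PIP1B* (757 ± 230), *γ-TIP1* (698 ± 382), *PIP2A* (615 ± 286), *PIP3A* (484 ± 167) and *PIP1D* (453 ± 90.8) followed, and in this order each overlapped with the next. *PIP2B* (283 ± 17.0), *PIP1A* (133 ± 3.66) and *PIP2C* (26.3 ± 10.9) came last, and each was separate from its neighbors in the order. Only uniquely aligned reads were counted, while the exon lengths were taken in full. Of the read-length windows of the transcripts, 42.4% in *PIP2B* and 41.8% in *PIP2C* have a close match elsewhere, as described below. Whether this lowered the RPKM of these genes, and so their places in the order, was not tested. The mutants had the same first 3 and last 3 genes. *γ-TIP1* was the 4th gene in wild type and in *fpa* (507 ± 68.5 RPKM) and the 7th in *bdr1,2,3* (357 ± 59.1 RPKM), where its range overlapped with those of *PIP3A* and *PIP2B* beside it.

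**Figure D1:**
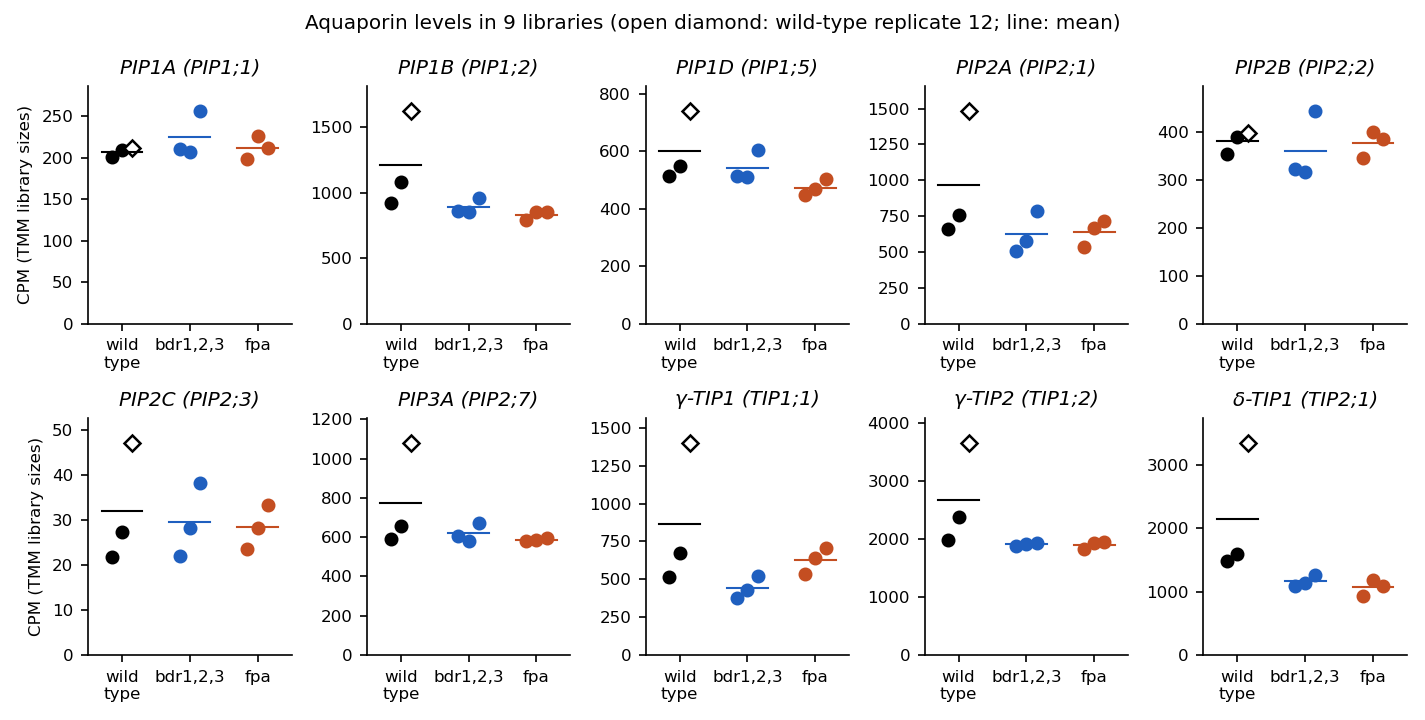
Level of each of the 10 aquaporin genes in CPM (linear axis from 0) in the 3 libraries of wild type (black), *bdr1,2,3* (blue) and *fpa* (orange), with a line at the mean of each genotype. Wild-type replicate 12, the open diamond, is the highest of the 9 libraries for 8 genes, and for *PIP1A* and *PIP2B* a *bdr1,2,3* library is the highest.

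The first question was whether loss of the BDR proteins changed the aquaporin transcripts. In the comparison of *bdr1,2,3* with wild type, 0 of the 10 genes passed the threshold of an adjusted p of 0.05 with edgeR, against 2.48% of all genes tested. At an unadjusted p under 0.05 there were 5, all lower in *bdr1,2,3*, against 15.1% of all genes, and DESeq2 called 1, *δ-TIP1*, against 4.00% of all genes. The median log2 fold change of the 10 was -0.38, that of all genes was 0.012, and 9 of the 10 values were negative. Without wild-type replicate 12 the median was -0.11, with 7 negative values, and again 0 genes passed, against 3.15% of all genes. The number at an unadjusted p under 0.05 then went from 5 to 2, against 14.7% of all genes.

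The tonoplast genes *γ-TIP1* and *δ-TIP1* had the most negative values, in this order. *δ-TIP1* (AT3G16240, chromosome 3, 5505360 to 5507050, plus strand), whose protein carries water and ammonia, had 1490, 3350 and 1600 CPM in wild-type replicates 1, 12 and 5 and 1090, 1140 and 1260 CPM in *bdr1,2,3* replicates 2, 4 and 7. All 3 *bdr1,2,3* libraries lay below all 3 wild-type libraries. Relative to wild type this was a log2 fold change of -0.88 (standard error 0.25, 95% interval -1.42 to -0.34, adjusted p = 0.0972 from edgeR), and without replicate 12 it was -0.41 (interval -0.65 to -0.17, adjusted p = 0.0704). Over 13 alternatives the adjusted p ran from 0.0143 to 0.302, and 4 of them called the gene, among these the fit without wild-type replicate 1 (-1.09, adjusted p = 0.0267). A non-coding gene, over 445 bp, and *PnsB3*, over 120 bp, overlap *δ-TIP1* on the opposite strand, and the strand setting of the counting is not given in the sources used here, so reads from these cannot be told apart.

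*γ-TIP1* (AT2G36830, chromosome 2, 15445294 to 15446621, plus strand), a water channel abundant in the vacuoles of vegetative tissue, had 513, 1400 and 676 CPM in wild type and 376, 428 and 520 CPM in *bdr1,2,3*. The groups overlapped at one point, with *bdr1,2,3* replicate 7 above wild-type replicate 1. The log2 fold change of -0.97 (standard error 0.28, interval -1.58 to -0.36, adjusted p = 0.107 from edgeR) went to -0.43 without replicate 12 (adjusted p = 0.167). It went to -1.23 without wild-type replicate 1, and the gene was then called (adjusted p = 0.0162). Over 13 alternatives the adjusted p ran from 0.0162 to 0.345, and 2 of them called the gene.

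*γ-TIP2* (AT3G26520, chromosome 3, 9722443 to 9723904, minus strand), known also as a salt-stress inducible tonoplast protein, had 1980, 3660 and 2390 CPM in wild type. The *bdr1,2,3* libraries were close to each other, at 1890, 1920 and 1930 CPM, and all lay below wild type. This gave -0.48 on the log2 scale (standard error 0.20, edgeR adjusted p = 0.253), and -0.19 without replicate 12 (adjusted p = 0.392). Of the 10 genes only *δ-TIP1* and *γ-TIP2* had *bdr1,2,3* libraries that were all lower than wild type, and 9.62% of all genes tested did.

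Among the PIP genes *PIP2A* (AT3G53420, chromosome 3, 19803473 to 19805730, minus strand) had the most negative value. Its protein is a major water channel of roots and guard cells. It had 661, 1480 and 758 CPM in wild type and 506, 575 and 785 CPM in *bdr1,2,3*, so that *bdr1,2,3* replicate 7 lay within the wild-type range. Its log2 fold change was -0.64 (standard error 0.26, interval -1.20 to -0.07, adjusted p = 0.267 from edgeR), and without replicate 12 it was -0.19 (interval -0.53 to 0.15). *PIP1B* (AT2G45960, chromosome 2, 18910081 to 18911982, plus strand), which in leaves also affects the passage of CO2, had 922, 1620 and 1080 CPM in wild type and 856, 853 and 960 CPM in *bdr1,2,3*. The value was -0.44 (standard error 0.19, adjusted p = 0.277), or -0.17 without replicate 12.

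*PIP3A* (AT4G35100, chromosome 4, 16708361 to 16710407, plus strand), a plasma membrane water channel, had 591, 1080 and 655 CPM in wild type and 606, 582 and 671 CPM in *bdr1,2,3*. Apart from replicate 12 the genotypes overlapped, and the log2 fold change went from -0.32 (adjusted p = 0.461) to -0.01 without that library. *PIP1D* (AT4G23400, chromosome 4, 12220641 to 12222468, plus strand) had 514, 739 and 550 CPM in wild type and 514, 511 and 605 CPM in *bdr1,2,3*. Its value of -0.14 (adjusted p = 0.719) turned to 0.03 without replicate 12.

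The other 3 PIP genes were close to 0. *PIP1A* (AT3G61430, chromosome 3, 22733243 to 22735394, plus strand) had 201, 212 and 209 CPM in wild type and 211, 207 and 256 CPM in *bdr1,2,3* (log2 fold change 0.12, interval -0.17 to 0.40, adjusted p = 0.734 from edgeR). *PIP2B* (AT2G37170, chromosome 2, 15613368 to 15615022, minus strand), a water channel of the root cortex, had 354, 398 and 389 CPM in wild type and 322, 316 and 442 CPM in *bdr1,2,3* (-0.08, interval -0.41 to 0.25, adjusted p = 0.849). *PIP2C* (AT2G37180, chromosome 2, 15617635 to 15619155, plus strand), first described as the desiccation-responsive gene *RD28*, had 21.8, 47.1 and 27.3 CPM in wild type and 21.9, 28.1 and 38.3 CPM in *bdr1,2,3* (-0.10, interval -0.66 to 0.46, adjusted p = 0.887). The *PIP2C* value turned to 0.25 without replicate 12 (interval -0.19 to 0.68), while *PIP1A* and *PIP2B* were then at 0.13 and -0.05. In *bdr1,2,3* replicate 7 was the highest library for all 3 genes.

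**Figure D2:**
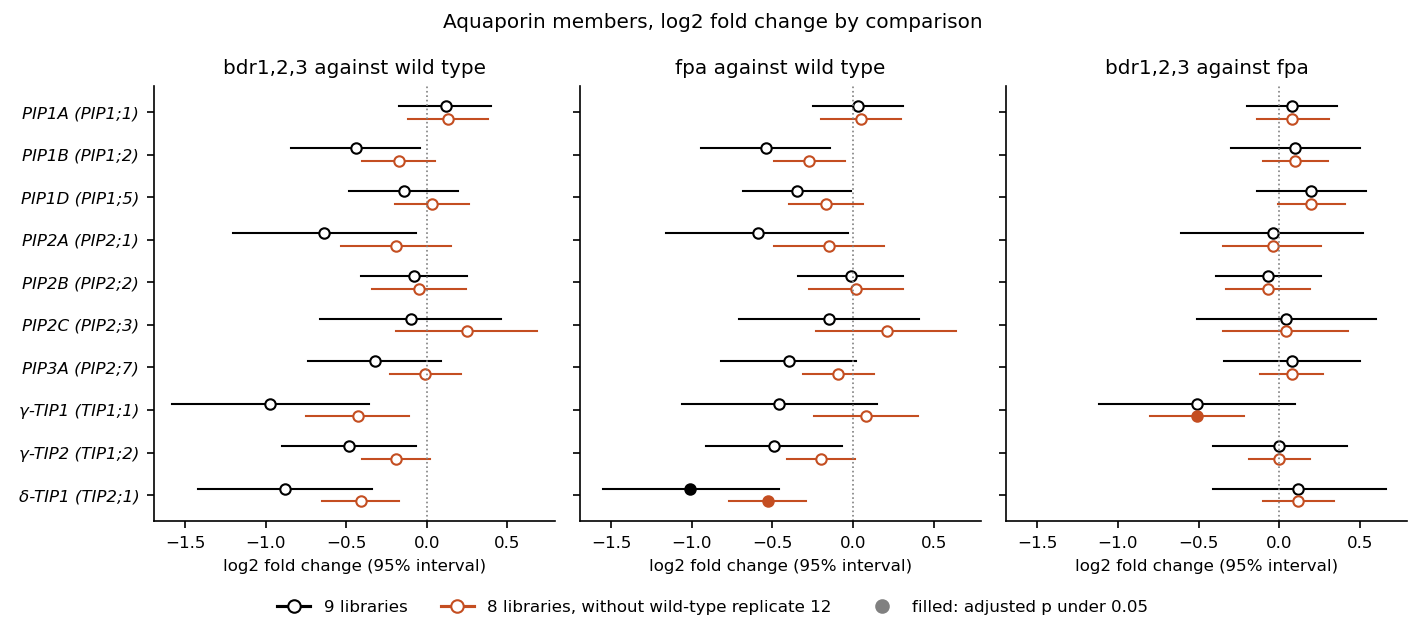
Log2 fold change with its 95% interval for the 10 aquaporin genes in the 3 comparisons, from all 9 libraries (black) and without wild-type replicate 12 (orange). A filled point passed an adjusted p of 0.05. *δ-TIP1* passed in *fpa* against wild type in both fits, and *γ-TIP1* passed in *bdr1,2,3* against *fpa* without replicate 12 only.

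The second question was whether the *fpa* mutant, with its defect in 3′ end choice, showed a change in the same genes. In *fpa* 1 of the 10 genes, *δ-TIP1*, fell relative to wild type, against 3.10% of all genes tested. The number at an unadjusted p under 0.05 was 5, against 19.8% of all genes, and DESeq2 called 1, against 6.46%. The median log2 fold change of the 10 was -0.43, that of all genes 0.005. Without replicate 12 the median was -0.12 and 1 gene, again *δ-TIP1*, was called, against 3.39% of all genes, and 2 genes had an unadjusted p under 0.05, against 18.1%. These values share the wild-type libraries with those of *bdr1,2,3*.

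*δ-TIP1* had 930, 1190 and 1090 CPM in *fpa* replicates 3, 6 and 8, all below the wild-type libraries, of which the lowest had 1490 CPM. The value was -1.01 on the log2 scale (standard error 0.25, interval -1.55 to -0.46, adjusted p = 0.0470 from edgeR), and without replicate 12 it was -0.53 (interval -0.77 to -0.29, adjusted p = 0.0168). The fold moved from 0.498 to 0.692 of the wild-type level between these fits. The adjusted p ran from 0.00118 to 0.178 over 13 alternatives, and in 6 of them it was above 0.05, among these the fits without *fpa* replicate 3, 6 or 8 (-0.91, -1.09 and -1.02, adjusted p = 0.178, 0.115 and 0.163).

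*γ-TIP1* had 537, 640 and 706 CPM in *fpa*, and all 3 lay between the lowest and the highest wild-type library. Its value against wild type was -0.46 (standard error 0.28, edgeR adjusted p = 0.398), and without replicate 12 it was 0.08 (interval -0.24 to 0.40). *γ-TIP2* had 1830, 1940 and 1950 CPM, all below wild type, with a value of -0.49 (standard error 0.20, adjusted p = 0.184) and of -0.20 without replicate 12. Libraries of *fpa* were all below wild type for 4 of the 10 genes, *δ-TIP1*, *γ-TIP2*, *PIP1B* and *PIP1D*, and for 13.4% of all genes tested.

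*PIP1B* had 789, 853 and 849 CPM in *fpa* (log2 fold change -0.54, standard error 0.19, adjusted p = 0.126 from edgeR). *PIP1D* had 447, 468 and 502 CPM (-0.35, standard error 0.16, adjusted p = 0.242). Without replicate 12 their values were -0.27 and -0.17. Libraries of *fpa* were then all below wild type for 5 of the 10 genes, with *PIP3A* added, and for 20.2% of all genes. Genes that were all below wild type with 9 libraries could not lose this order when a wild-type library was left out.

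*PIP2A* had 536, 669 and 715 CPM in *fpa*, overlapping with wild type, and its value went from -0.59 (adjusted p = 0.231) to -0.15 without replicate 12. *PIP3A* was even, at 580, 584 and 597 CPM, and went from -0.40 (adjusted p = 0.269) to -0.09. *PIP1A* (198, 226 and 212 CPM), *PIP2B* (346, 400 and 384 CPM) and *PIP2C* (23.6, 28.3 and 33.3 CPM) had log2 fold changes of 0.03, -0.01 and -0.15. The last of these had the widest interval of the 3, -0.71 to 0.41, and turned to 0.21 without replicate 12.

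The direct comparison of the mutants does not use the wild-type values, apart from the estimate of the spread. With 9 libraries 0 of the 10 genes passed the threshold with edgeR, 0 had an unadjusted p under 0.05 and DESeq2 called 0. Of all genes, edgeR called 3.54%, 14.9% had an unadjusted p under 0.05 and DESeq2 called 4.83%. The median log2 fold change of *bdr1,2,3* over *fpa* was 0.06. For 9 genes the value lay between -0.07 and 0.20, with intervals that reached no further than -0.61 and 0.66. *γ-TIP1* stood at -0.51 (standard error 0.28, interval -1.12 to 0.10, adjusted p = 0.452). All 3 of its *bdr1,2,3* libraries (376 to 520 CPM) lay below all 3 *fpa* libraries (537 to 706 CPM), as in 11.9% of all genes. In the other direction, *PIP1B* and *PIP1D* had all *bdr1,2,3* libraries above *fpa*, as did 12.1% of all genes. For *PIP1B* the closest libraries both rounded to 853 CPM. Without replicate 12 the estimate of the spread was lower, and *γ-TIP1* was called at the same -0.51 (standard error 0.14, interval -0.80 to -0.22, adjusted p = 0.0300). Its adjusted p ran from 0.00658 to 0.775 over 14 alternatives, of which 3 called it. It was then 1 of 10 genes called, against 7.51% of all genes.

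Because it bears on each comparison with wild type, the level of the 10 genes in wild-type replicate 12 is given by gene. *γ-TIP1* was 2.36 times as high in replicate 12 as in the mean of replicates 1 and 5, *δ-TIP1* 2.17 times and *PIP2A* 2.09 times. *PIP2C* (1.92), *PIP3A* (1.74), *γ-TIP2* (1.68), *PIP1B* (1.62) and *PIP1D* (1.39) were also higher, and *PIP2B* (1.07) and *PIP1A* (1.04) were within a few percent. The median log2 difference was 0.77 for the 10 genes, -0.02 for all genes tested and 0.46 for the 569 genes with a mean log2 CPM above 8. The summed level of the 10 green-tissue markers was also high in replicate 12, at 57100 CPM against 34600 and 36000 in replicates 1 and 5. In the mutants it was 31100 to 35400 CPM (*bdr1,2,3*) and 28900 to 34900 CPM (*fpa*). With 9 libraries edgeR called 1 of the 10, *RCA*, lower in *bdr1,2,3* than in wild type (-0.73, adjusted p = 0.0186). Of all genes 2.48% were called. Without replicate 12 it called *RBCS2B*, *RBCS3B* and *RCA* lower, against 3.15%. Then 4 of the 10 had all *bdr1,2,3* libraries below the wild-type libraries and 3 had all above, against 15.7% and 15.4%. In *fpa* 0 of the 10 were called in either fit. The summed levels of root hair (37.2 against 26.5 and 34.8 CPM), endodermis (87.5 against 74.2 and 85.7) and stele markers (123 against 138 and 145) in replicate 12 were within 1.5 times those of the other wild-type libraries. Most of the stele sum came from *PHO1*, with a mean of 91.8 CPM in wild type. The wild-type mean of *SKOR* was 7.76 CPM with replicate 12 and 9.84 CPM without it, and that of *SHR* was 32.0 and 28.5 CPM. In *bdr1,2,3* the root hair, endodermis and stele sums were 30.9 to 51.8, 80.2 to 88.8 and 108 to 135 CPM. In *fpa* they were 38.6 to 47.3, 69.6 to 86.7 and 125 to 146 CPM. EdgeR called 0 of the 20 root markers in either mutant against wild type with 9 libraries. Without replicate 12 *SKOR* was called lower in both mutants (adjusted p = 0.0295 and 0.0425) and *CASP4* higher in *fpa* (0.0380). The shares of all genes were then 3.15% and 3.39%. The part of library depth and tissue composition in the aquaporin values was not tested.

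**Figure D3:**
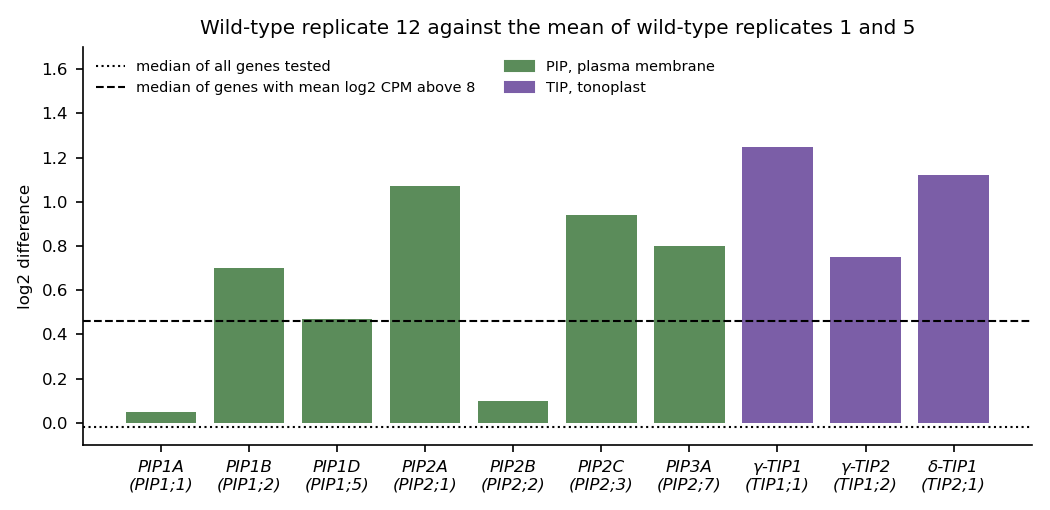
Log2 difference in level between wild-type replicate 12 and the mean of replicates 1 and 5 for the 10 aquaporin genes (bars, with PIP genes in green and TIP genes in purple), with the median of all 20413 genes tested (dotted, -0.02) and of the 569 genes with a mean log2 CPM above 8 (dashed, 0.46). *PIP1A* and *PIP2B* are below the dashed line and the other 8 genes are above it.

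*PIP2B* and *PIP2C* are neighbors on chromosome 2, 2612 bp apart and transcribed away from each other, and their sequences limit what a count can show. Of 858 coding bases 45 differ, the longest shared run is 242 bases, and 3 shared runs are as long as a read of 49 bases or longer. Of all 49-base windows of their transcripts, 42.4% in *PIP2B* and 41.8% in *PIP2C* have a match with at most 2 mismatches elsewhere, while in the other 8 genes this is 0.0% to 6.6%. As only uniquely aligned reads were counted, both levels rest on part of the transcript, and reads can pass from one gene to the other. The 60 coding bases that differ most, bases 414 to 473, are shown because reads from here can be assigned, and capitals mark the 10 bases that differ.
PIP2B: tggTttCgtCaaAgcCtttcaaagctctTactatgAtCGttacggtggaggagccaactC
PIP2C: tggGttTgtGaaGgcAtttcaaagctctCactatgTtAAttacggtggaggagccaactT
*PIP2C* had 332 to 732 counts per library and *PIP2B* 2803 to 10428. How many reads passed from one gene to the other was not tested. With the counts of both genes summed, the number of aquaporin genes called was the same in all 3 comparisons.

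The other 25 genes of the family cover the remaining PIPs and TIPs, the NIPs, which in plants carry metalloids such as boron and silicon, and the SIPs of the endoplasmic reticulum. Of these 21 passed the filter on low counts. In *bdr1,2,3* against wild type 0 were called by edgeR, against 2.48% of all genes, and the median log2 fold change was -0.11. At an unadjusted p under 0.05 there were 4, against 15.1% of all genes, and DESeq2 called 1, *PIP2;4*, against 4%. The edgeR value of *PIP2;4* was -0.54 (adjusted p = 0.0633 from edgeR and 0.0165 from DESeq2), or -0.43 without replicate 12 (adjusted p = 0.0859 from edgeR). Without replicate 12 the median was 0.03, and 7 had an unadjusted p under 0.05, against 14.7% of all genes. In that fit edgeR called 1, against 3.15% of all genes. This was the boric acid channel gene *NIP5;1*, which was higher (0.56, adjusted p = 0.0436). All 6 of the other PIP genes had negative values in *bdr1,2,3* (median -0.43) and in *fpa* (median -0.48). EdgeR called 0 of them in either mutant, and DESeq2 called 1 in each, against 4% and 6.46% of all genes. Without replicate 12 these medians were -0.10 and -0.14, and 4 of 6 and 5 of 6 values were negative. In *fpa* against wild type 1 of the 21 fell with edgeR, *β-TIP* (*TIP3;2*), against 3.10% of all genes. The same gene was called without replicate 12, against 3.39% of all genes. DESeq2 called 3, *β-TIP*, *α-TIP* (*TIP3;1*) and *PIP1C* (*PIP1;3*), all lower, against 6.46% of all genes. In *bdr1,2,3* against *fpa* edgeR called 2 of the 21 higher, *α-TIP* and *β-TIP*, against 3.54% of all genes. Without replicate 12 it called 4 higher, with *NIP5;1* (0.45, adjusted p = 0.0405) and *PIP1C* (0.43, adjusted p = 0.0137) added, against 7.51%. *PIP2;4*, *NIP5;1* and *PIP1C* are named after their values were seen.

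*β-TIP* and its relative *α-TIP* are the tonoplast aquaporins of seeds and protein storage vacuoles. *β-TIP* had 12.1, 30.5 and 10.6 CPM in wild type, 15.6, 22.4 and 16.2 CPM in *bdr1,2,3* and 3.11, 5.84 and 5.61 CPM in *fpa*. All *fpa* libraries were below all others. Of all genes tested, 13.4% had *fpa* all below wild type and 12.1% had *bdr1,2,3* all above *fpa*. The log2 fold change in *fpa* was -1.81 (standard error 0.37, adjusted p = 0.0168 from edgeR) against wild type, or -1.22 without replicate 12 (adjusted p = 0.0123), and *bdr1,2,3* was higher than *fpa* by 1.89 (standard error 0.36, adjusted p = 0.00811). *α-TIP* had 6.42, 10.8 and 3.44 CPM in wild type, 8.28, 8.28 and 7.63 CPM in *bdr1,2,3* and 1.59, 3.19 and 2.62 CPM in *fpa*. It was higher in *bdr1,2,3* than in *fpa* by 1.71 (standard error 0.36, adjusted p = 0.0169), and its value in *fpa* against wild type was -1.41 (adjusted p = 0.0572), or -0.98 without replicate 12 (adjusted p = 0.110). The call of *β-TIP* in *fpa* was lost without any one of the 3 *fpa* libraries (adjusted p = 0.0534 to 0.0832).

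Among 8 genes that handle aquaporin proteins, *TSPO*, which in Arabidopsis binds *PIP3A* protein and takes it into degradation, was called by edgeR. It had 18.8, 47.2 and 18.1 CPM in wild type, 33.2, 33.5 and 26.8 CPM in *bdr1,2,3* and 7.19, 13.6 and 9.04 CPM in *fpa*. All *fpa* libraries were lower than all others, against the shares of all genes given for *β-TIP*. *TSPO* fell in *fpa* against wild type (-1.45, standard error 0.33, adjusted p = 0.0293 from edgeR), also without replicate 12 (-0.89, adjusted p = 0.0290), and was higher in *bdr1,2,3* than in *fpa* (1.65, standard error 0.33, adjusted p = 0.0101). With 9 libraries it was 1 of 8 called in each of these 2 comparisons, against 3.10% and 3.54% of all genes. The fits without *fpa* replicate 3 or 8 did not call it against wild type (adjusted p = 0.129 and 0.136). The 7 others, the syntaxins *SYP121* and *SYP61*, the ubiquitin ligases *RMA1*, *RMA2* and *RMA3* and the kinases *OST1* and *SIRK1*, were not called by edgeR in any of the 3 comparisons. In *fpa* against wild type DESeq2 called 2 of the 8, *TSPO* and *SYP121*, both lower, against 6.46% of all genes. For *SYP121* the edgeR log2 fold change was -0.54 (adjusted p = 0.0849 from edgeR and 0.0442 from DESeq2).

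**Figure D4:**
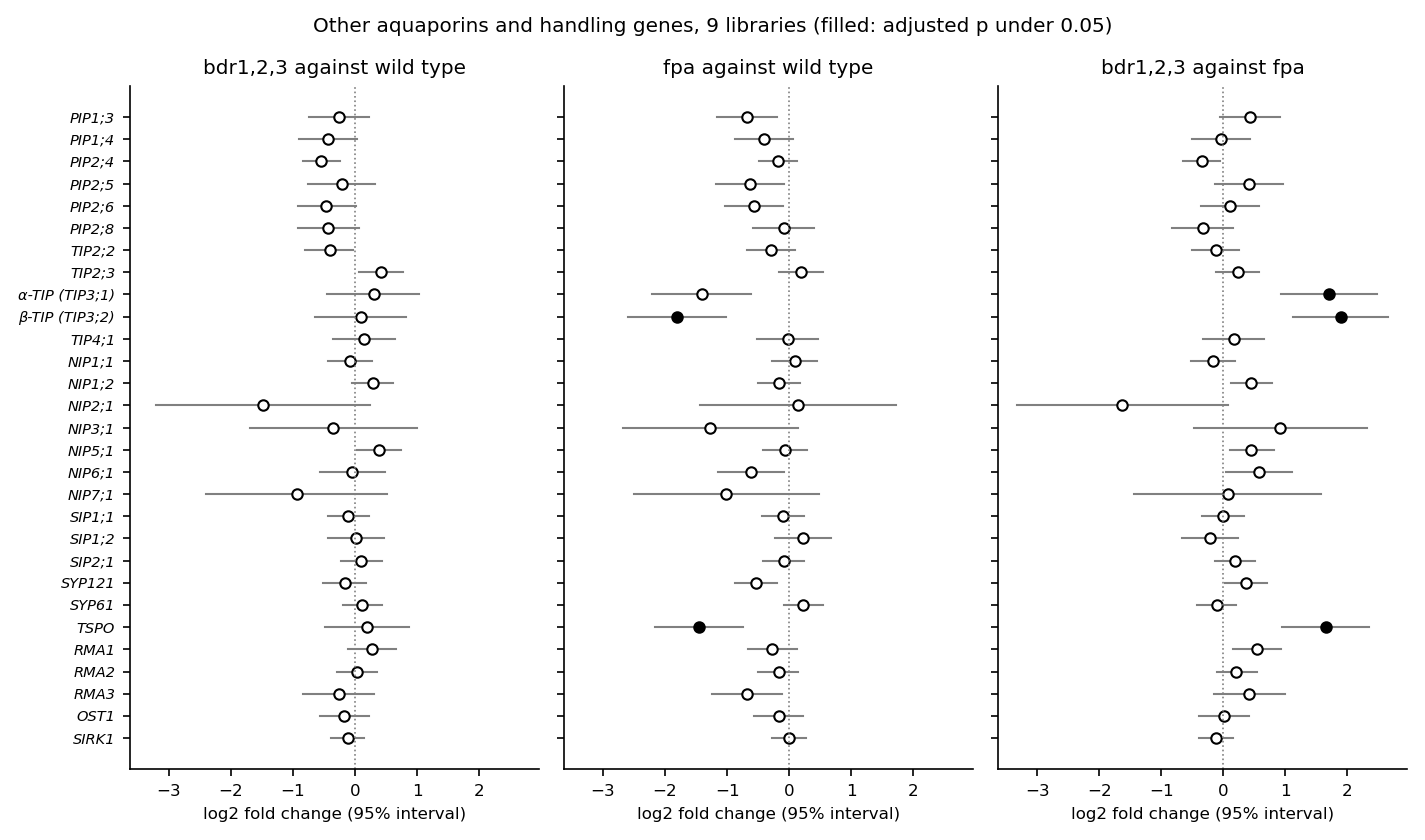
Log2 fold change with its 95% interval for the 21 other aquaporin genes that were tested and the 8 handling genes in the 3 comparisons, from all 9 libraries. Filled points passed an adjusted p of 0.05. These are *β-TIP* and *TSPO* in *fpa* against wild type, and *α-TIP*, *β-TIP* and *TSPO* in *bdr1,2,3* against *fpa*.

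Since the study asked how BDR proteins act on a gene through its upstream neighbor, the neighbors of the 10 genes were examined in the RefSeq annotation of TAIR10.1. For 4 of the 10, the closest protein-coding gene upstream lay on the same strand, 3582 bp away for *PIP2A*, 3962 bp for *γ-TIP1*, 19703 bp for *γ-TIP2* and 1786 bp for *δ-TIP1*. Of these upstream neighbors AT3G53430, before *PIP2A*, had 180 ± 22.1 CPM in *bdr1,2,3* and 216 ± 62.5 CPM in wild type (SD, n = 3, log2 fold change -0.27, adjusted p = 0.553 from edgeR). AT3G16230, before *δ-TIP1*, had 26.5 ± 1.88 and 24.1 ± 7.54 CPM (0.11, adjusted p = 0.848). AT3G26539, before *γ-TIP2*, had a mean under 1 CPM in both, and AT2G36815, before *γ-TIP1*, did not pass the filter on low counts.

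Downstream, *PIP1A* ends 268 bp before *CYSC1*, a cyanoalanine synthase of the mitochondrion, which had 366 ± 19.1 CPM in *bdr1,2,3* and 317 ± 27.0 CPM in wild type (SD, n = 3, log2 fold change 0.20, adjusted p = 0.488 from edgeR). The distance was 1484 bp from *PIP1D* to the tetraspanin *TET5* and 1144 bp from *PIP2A* to the ubiquitin ligase *LUL2*, and both of these genes are on the strand of the aquaporin. Their log2 fold changes in *bdr1,2,3* against wild type were 0.16 and 0.06 (adjusted p = 0.802 and 0.918). *TET5* was higher in *bdr1,2,3* than in *fpa* (0.93, standard error 0.24, adjusted p = 0.0446), at a level of 6.98 ± 0.521 and 3.66 ± 0.824 CPM (SD, n = 3), and this call was lost in 7 of 14 alternatives. Without replicate 12 it was kept (adjusted p = 0.0194), and *LUL2* was called as well (0.70, adjusted p = 0.0393). Of all genes 3.54% were called in this comparison, and 7.51% without replicate 12. On either side and strand, *CAT2* was the only neighbor that edgeR called in *bdr1,2,3* against wild type, where 2.48% of all genes were called. In *fpa* against wild type edgeR called no neighbor. DESeq2 called *TET5* (adjusted p = 0.0464) and *CYP86A8* (0.0182) lower there, against 6.46% of all genes. *CYP86A8*, 112 bp downstream of *PIP1B* on the opposite strand, had edgeR values of -0.62 in *bdr1,2,3* and -0.70 in *fpa* (adjusted p = 0.128 and 0.0654). Without replicate 12 *CAT2* was also lower in *bdr1,2,3* than in *fpa* (-0.67, adjusted p = 0.00472 from edgeR). The calls of *TET5*, *LUL2*, *CAT2* and *CYP86A8* were picked out after their values were seen. *CAT2*, a catalase of peroxisomes, lies 4856 bp upstream of *PIP3A* on the opposite strand. It fell from 1020 ± 163 to 462 ± 92.7 CPM (SD, n = 3, log2 fold change -1.15, standard error 0.18, adjusted p = 0.00216), also without replicate 12 (-1.03, adjusted p = 0.000474), while *PIP3A* beside it was at -0.32 and -0.01.

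Across the 9 libraries the 10 genes varied together to different degrees. The median Pearson r of log2 CPM over the 45 pairs was 0.77, from -0.06 to 0.98, and without replicate 12 it was 0.56, from -0.08 to 0.90. These values are a description, since the libraries share genotypes and differ in depth. *PIP1B* and *δ-TIP1* had an r of 0.98 over 9 libraries and 0.90 over 8, and *PIP2A* and *PIP2B* had 0.62 and 0.87. *PIP1A* and *γ-TIP2* were apart in both, at -0.06 and -0.05.

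The mean standardized level of the 10 genes was highest in wild-type replicate 12 (1.90), and it lay between -0.78 in *fpa* replicate 3 and 0.54 in *bdr1,2,3* replicate 7 in the other libraries. The 5 genes outside the family with the most similar pattern over the 9 libraries were *FBA6*, a fructose-bisphosphate aldolase (r = 0.995), AT2G39270 (0.991), the nitrilase *NIT1* (0.985), *FLA1*, a fasciclin-like arabinogalactan protein (0.983), and the chitinase-like gene *POM1* (0.983). All 5 were higher in replicate 12 than in the mean of replicates 1 and 5, by 1.44 to 2.07 times. This follows from their choice, because replicate 12 stood furthest out in the pattern to which they were matched. Over the 8 other libraries, which also took part in the choice, their r with the 10 genes was 0.894 to 0.955. Only *FBA6* and AT2G39270 were again among the first 5 over these 8. The others there were AT3G62450 (r = 0.969), AT2G32430 (0.962) and AT5G52190 (0.954), and AT3G62450, the first of the 5, was lower in replicate 12, at 0.725 times the mean of replicates 1 and 5.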

How the data were processed

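Seedling RNA of 9 libraries was sequenced as 49 bp single-end reads. The authors aligned them to TAIR10 (TopHat2 2.0.8), kept unique alignments (SAMtools 1.2) and deposited raw counts per gene (featureCounts, strand setting not given in the sources used here). A table normalized by the authors lacks wild-type replicate 12 and was not used. Libraries were grouped by their titles. The test was the quasi-likelihood test of edgeR 4.0.16 (R 4.3.3, low counts filtered with filterByExpr, TMM, 1 fit of 3 genotypes, two-sided, Benjamini-Hochberg over all genes, adjusted p under 0.05), with a common coefficient of variation of 18.8%. Standard errors were taken as the ratio of the log2 fold change to the root of the F statistic. DESeq2 1.42.0, RLE, other filters, 2-genotype fits, a threshold of 0.01, a summed *PIP2B* and *PIP2C* and each library left out were alternatives. The fits were tested on simulated data. Positions, sequences and exon lengths come from RefSeq TAIR10.1 (98.5% of nuclear identifiers matched), and 49-base windows were aligned with bwa 0.7.19. All 10 aquaporins are named, other family and handling genes where called, the 4 mutated genes, and the 5 most similar genes. Single marker genes are named after their values were seen. The genes and lists were chosen with earlier results of these data known.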

Additional observations from a re-analysis of the deposited data

Results flagged for a closer look

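Among the 10 aquaporins, the 21 others tested and the 8 handling genes, the effects of the mutants differed for 3 genes. The test was the direct comparison of *bdr1,2,3* with *fpa* in edgeR's quasi-likelihood test, which called 3.54% of all genes. The 3 genes are named because they passed this test. The difference in log2 level was 1.71 for *α-TIP* (adjusted p = 0.0169), 1.89 for *β-TIP* (adjusted p = 0.00811) and 1.65 for *TSPO* (adjusted p = 0.0101). In each of these genes the 3 *bdr1,2,3* libraries were above the 3 *fpa* libraries, as in 12.1% of all genes tested. The genes were picked from these same libraries, so this adds no support. The calls were lost in 4, 1 and 3 of 14 alternatives. These were the fits without *bdr1,2,3* replicate 2 or 4 or *fpa* replicate 3 or 8 for *α-TIP* (adjusted p = 0.0517 to 0.0864), without *bdr1,2,3* replicate 4 for *β-TIP* (adjusted p = 0.0504), and without *bdr1,2,3* replicate 4 or *fpa* replicate 3 or 8 for *TSPO* (adjusted p = 0.0504 to 0.0651). None of the 10 aquaporins chosen by name differed between the mutants with 9 libraries.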

How the results depend on the processing

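The calls are the least stable values. With an adjusted p under 0.01 in place of 0.05, 229 genes were called in *bdr1,2,3* against wild type (507 in the report's fit), 187 in *fpa* against wild type (633) and 341 in *bdr1,2,3* against *fpa* (722). In the same order the counts were 880, 1419 and 1131 with DESeq2, 302, 388 and 1269 with only the 2 genotypes compared, 896, 1103 and 1872 with DESeq2 and without wild-type replicate 12, and 279 to 656, 199 to 928 and 376 to 1565 with 1 library left out. Of the 10 aquaporins, those called lower in *bdr1,2,3* than in wild type numbered 0, but 1 with DESeq2, 1 with DESeq2 without replicate 12, 2 with no filter on low counts and 0 to 2 with 1 library left out. In *fpa* against wild type 1 was called, and 0 with an adjusted p under 0.01, with at least 10 counts in every library, with RLE size factors or with only the 2 genotypes compared, and 0 to 2 with 1 library left out. In *bdr1,2,3* against *fpa* 0 were called, and 1 with only the 2 genotypes compared, 1 with DESeq2 without replicate 12 and 0 to 1 with 1 library left out. In all alternatives run, 0 were called higher. The cause was not tested. The median of the 10 genes lay between -0.55 and -0.11 in *bdr1,2,3* against wild type, between -0.62 and -0.12 in *fpa* against wild type and between -0.01 and 0.11 in *bdr1,2,3* against *fpa*.

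Some small log2 fold changes changed sign. With DESeq2 and without replicate 12 the values against wild type were 0.08 for *γ-TIP1* and 0.02 for *PIP2B* in *fpa*, 0.03 for *PIP1D* and -0.01 for *LUL2* in *bdr1,2,3*, and 0.25 and 0.21 for *PIP2C* in *bdr1,2,3* and *fpa*. *PIP2B* in *fpa* was at 0.01 with at least 10 counts in every library. With 1 library left out, values in *bdr1,2,3* against wild type ran from -0.25 to 0.03 for *PIP1D*, -0.33 to 0.25 for *PIP2C*, -0.06 to 0.72 for *α-TIP*, -0.20 to 0.68 for *β-TIP*, -0.05 to 0.76 for *TSPO* and -0.18 to 0.23 for *LUL2*. In *fpa* against wild type they ran from -0.73 to 0.08 for *γ-TIP1*, -0.06 to 0.04 for *PIP2B*, -0.37 to 0.21 for *PIP2C* and -0.02 to 0.08 for *PIP1A*. In *bdr1,2,3* against *fpa* they ran from -0.02 to 0.14 for *PIP1A*, -0.24 to 0.09 for *PIP2A*, -0.24 to 0.02 for *PIP2B*, -0.19 to 0.22 for *PIP2C*, -0.06 to 0.02 for *CYSC1* and -0.25 to 0.02 for *FPA*. Of the single values of the 10 genes under the alternatives, 118, 113 and 128 kept their direction and their side of the threshold in the 3 comparisons, and 5, 9 and 8 changed sign. DESeq2 without replicate 12, the fit without replicate 12 in *bdr1,2,3* against *fpa*, and the alternatives for all genes and for genes other than the 10 were chosen after seeing the data. No paired analysis was possible because the genotypes share no replicate numbers. Depth limits the genes with few counts, with 28 to 208 per library for *α-TIP*, 55 to 564 for *β-TIP* and 332 to 732 for *PIP2C*.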
